A study of Mus musculus with 4 samples.

Results

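Axon guidance and synaptic adhesion genes are described here in gene lists from single-cell RNA sequencing of the fetal mouse pancreas. Members were chosen by symbol: the semaphorins, plexins, ephrins, Eph receptors, netrins, netrin-G proteins, Slits, Robos, Unc5 receptors, Dcc and Dscam genes, neurexins, neuroligins, and the Lrrtm, Lrrc4, contactin, Caspr (Cntnap), Slitrk and Il1rapl families. Of the 29652 genes in any complete list, 104 were members. The annotation holds 1 more, Ntn3, and no complete list holds a gene of that symbol. Its identifier is higher than the last one in every list, and the annotation release behind the lists is not named. Whether Ntn3 could have been listed is thus unknown, and it is not counted as absent.

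The study has 4 libraries, 1 per group, of pancreatic cells from C57BL/6 embryos that were labelled for EpCAM, an epithelial surface protein, and sorted. WT embryos carried Setd2 f/f without Cre, at E13.5 and E15.5, and KO embryos carried PdxcreSetd2 f/f at the same ages, so both genotypes share the floxed Setd2 allele. Setd2 encodes the enzyme that trimethylates lysine 36 of histone H3. A Cre driven by Pdx sequences acts in the pancreatic epithelium, so nerve, glial or vessel cells that pass a sort are not its intended target. The labels do not say how many embryos were pooled per library.

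The deposited tables used here state whether a gene is listed, with no count or level, and what a gene needed to be listed is not stated in the labels or headers. At E13.5, 17108 protein-coding genes were listed in WT and 17154 in KO, and at E15.5, 16717 were listed in KO. With all gene types counted, E13.5 WT held 25463 genes, E13.5 KO 26341 and E15.5 KO 25474. The E15.5 WT list breaks off after 167 genes, and the only member in the stretch it covers is Sema4f. Each group is 1 library, so no difference was checked in replicates or tested, and all values describe these libraries. Fewer cells of a type, less RNA per cell and shallower sequencing cannot be told apart in such a list. The families were picked for description with the comparison of the KO lists known, so their counts there are not independent evidence. Setd2 was in 3 of the 3 complete lists, which does not check the genotype, since a listing does not separate the deleted part from the rest.

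Guidance ligands and receptors steer growing axons and also shape epithelia and vessels. Semaphorins act through plexins, with neuropilins as co-receptors of the secreted forms. Ephrins act through Eph receptor kinases, Slits through Robos, and netrins through Dcc and Unc5 receptors. Synaptic adhesion proteins join the cell membranes on both sides of a synapse, as presynaptic neurexins do with neuroligins and Lrrtm proteins. Autonomic nerves and neural crest cells enter the fetal pancreas, and endocrine cells themselves use part of the neuronal secretion and adhesion machinery, so a listing does not name the cell it came from.

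Most members were listed in every complete library. All 3 lists held 88 of the 104 members (84.6%), against 89.4% of the 17949 protein-coding genes in any complete list. At E13.5, 101 members were listed in WT and 100 in KO, and at E15.5, 91 were listed in KO. Guidance ligands were the most evenly listed group, with 33 of 34 in all 3 lists. Of the 34 guidance receptors 28 were in all 3, and of the 36 synaptic and axonal adhesion genes 27 were. The remaining 16 members were in 1 or 2 lists, and 10 of them shared a pattern, listed in both E13.5 libraries and not in E15.5 KO. This pattern held for 9.62% of listed members and for 3.09% of protein-coding genes. No member was listed in both KO libraries and missing from E13.5 WT, a pattern of 229 protein-coding genes (1.28%).

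**Figure D1:**
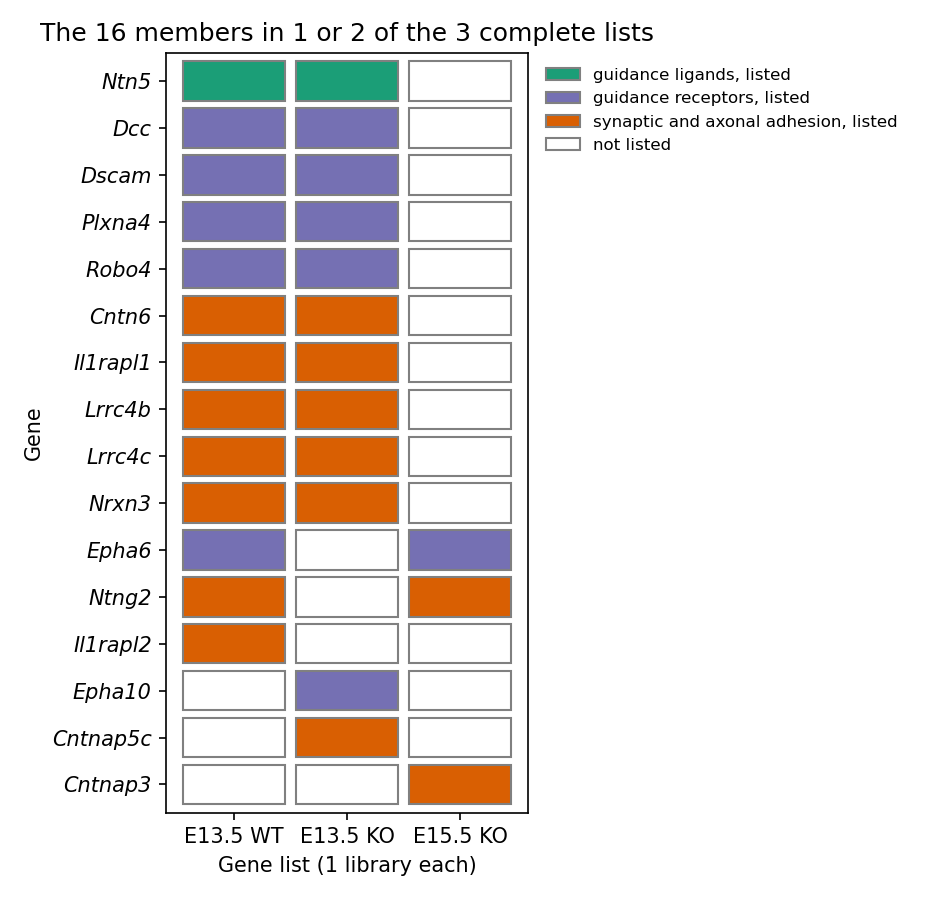
Listing of the 16 members that were in 1 or 2 of the complete lists. Rows are genes, columns are the complete lists, a filled box means listed and its colour gives the role. The upper 10 rows are filled in both E13.5 columns and empty in E15.5 KO.

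Promoter sequences of members of that pattern are shown because their base composition is a property that the choice of genes did not use. The 5 printed belong to members of the pattern whose RefSeq entry lies near the annotated start and reaches at least 175 bases ahead of the transcript, and Robo3, a neighbour of Robo4 that all 3 lists held, is added for contrast. The sequences are from RefSeq (GRCm38.p6), read 5′ to 3′ on the gene's strand, and end before the annotated transcript. The minus-strand stretches are chr16:97170753-97170985 for Dscam, chr9:37433247-37433425 for Robo3 and chrX:88115949-88116198 for Il1rapl1. The plus-strand stretches are chr2:96317919-96318168 for Lrrc4c, chr7:45683772-45684021 for Ntn5 and chr9:37401722-37401896 for Robo4. Capitals mark CG dinucleotides, the sites of DNA methylation in mammals.
Dscam: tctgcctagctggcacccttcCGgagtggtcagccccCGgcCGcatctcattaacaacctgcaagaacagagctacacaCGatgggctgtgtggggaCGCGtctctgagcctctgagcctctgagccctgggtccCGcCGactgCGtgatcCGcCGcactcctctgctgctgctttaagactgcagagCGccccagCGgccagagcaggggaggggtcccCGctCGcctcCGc
Robo3: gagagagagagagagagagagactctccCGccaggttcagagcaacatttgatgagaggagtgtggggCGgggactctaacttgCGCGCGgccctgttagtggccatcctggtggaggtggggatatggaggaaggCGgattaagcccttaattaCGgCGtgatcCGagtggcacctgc
Il1rapl1: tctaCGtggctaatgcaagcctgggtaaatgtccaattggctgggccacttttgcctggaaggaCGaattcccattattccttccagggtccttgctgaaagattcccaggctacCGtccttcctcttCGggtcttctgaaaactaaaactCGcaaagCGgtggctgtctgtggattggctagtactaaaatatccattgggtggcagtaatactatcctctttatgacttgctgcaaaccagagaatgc
Lrrc4c: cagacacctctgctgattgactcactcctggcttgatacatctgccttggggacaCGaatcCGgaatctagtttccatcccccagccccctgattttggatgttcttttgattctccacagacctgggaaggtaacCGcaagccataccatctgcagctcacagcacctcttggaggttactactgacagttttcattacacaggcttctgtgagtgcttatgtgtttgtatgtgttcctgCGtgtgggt
Ntn5: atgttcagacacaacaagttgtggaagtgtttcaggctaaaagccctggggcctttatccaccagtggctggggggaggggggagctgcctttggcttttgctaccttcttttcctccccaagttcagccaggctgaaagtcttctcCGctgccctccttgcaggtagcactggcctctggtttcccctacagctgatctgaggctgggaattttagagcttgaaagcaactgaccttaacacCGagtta
Robo4: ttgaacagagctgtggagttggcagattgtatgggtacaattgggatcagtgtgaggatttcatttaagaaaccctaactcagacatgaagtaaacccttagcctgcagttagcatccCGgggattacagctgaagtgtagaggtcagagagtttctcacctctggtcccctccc

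The Dscam stretch of 233 bases held 16 CG and the Robo3 stretch of 179 bases held 9. The Il1rapl1 stretch of 250 bases held 6 CG, that of Lrrc4c 4 and that of Ntn5 2, and the 175 bases before Robo4 held 1. CpG content was summarised as the observed to expected ratio over each RefSeq entry of 300 bases, which is the CG count times the length divided by the product of the C and G counts. Entries with a ratio under 0.6 were called CpG-poor. Of the 105 annotated members 85 had an entry. Of the members listed in all 3 libraries, 28 of 71 with an entry were CpG-poor (39.4%), with a median ratio of 0.66. Of the 10 members in both E13.5 lists and not in E15.5 KO, 8 had an entry and 7 of these were CpG-poor, with a median of 0.26 and a range of 0.11 to 0.71. Dscam was the exception at 0.71. Robo3 stood at 0.60, at the border, and Robo2, also in all 3 lists, at 0.55, so the printed contrast is an example only. Among all 32851 entries of the RefSeq table, non-coding genes included, 64.2% were CpG-poor. Of the listed protein-coding genes 76.9% had an entry, fewer than the 80% needed, so the check over them is void as a comparison. Of those with an entry, 342 of 401 with the same listing pattern were CpG-poor (85.3%, median ratio 0.26), against 35.6% of those in all 3 lists (median 0.72). The share among the members is near that of all protein-coding genes with their pattern, so nothing particular to the members is read from it. Those genes include the members, and 72.4% of them had an entry, also under 80%. For 9 members the nearest entry lay over 1000 bases from the annotated start, among them Nrxn3 and Lrrc4b. Without these, 24 of 65 and 5 of 6 were CpG-poor, but 76 of 105 members then have an entry, so that check is void as well.

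Among the guidance ligands, the semaphorins were listed throughout. All 20 semaphorins were in all 3 lists, from the secreted Sema3a, Sema3b, Sema3c and Sema3d to the membrane-bound Sema6 genes and Sema7a. Sema4f (chromosome 6, 82911885 to 82939769), a membrane-bound semaphorin, was the 1 member that the E15.5 WT list could be asked for, and it was in all 4 lists. In the stretch covered by that list, 4.68% of protein-coding genes listed in either E15.5 library were in 1 genotype only, and 6.29% of those listed in either WT library were at 1 age only. With 1 member covered, nothing can be read against those shares.

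The 8 ephrins were likewise in all 3 lists, the membrane-anchored Efna1, Efna2, Efna3, Efna4 and Efna5 as well as the transmembrane Efnb1, Efnb2 and Efnb3. Slit1, Slit2 and Slit3, secreted ligands of the Robos, were also in all 3. Of the netrins, secreted relatives of laminin, Ntn1 and Ntn4 were in every complete list. Ntn5 (chromosome 7, 45684022 to 45694556), the other listed netrin, was the only ligand that differed. It was in the E13.5 WT and E13.5 KO lists and not in E15.5 KO. Its annotated span overlaps Sec1 on the opposite strand, which all 3 lists held, and the labels do not say whether reads were counted by strand.

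Guidance receptors showed 4 members of the pattern, each from another family. Dcc (chromosome 18, 71253634 to 72351069), the netrin receptor that mediates attraction, was in both E13.5 lists and not in E15.5 KO. The other netrin receptors Unc5a, Unc5b, Unc5c and Unc5d, which mediate repulsion, were in all 3, as was Neo1, a relative of Dcc that was among the other pathway genes examined. Dscam (chromosome 16, 96590840 to 97170752), an immunoglobulin-type adhesion receptor for which netrin is a ligand, was missing from E15.5 KO only, while its relative Dscaml1 was in all 3.

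Plxna4 (chromosome 6, 32144268 to 32588192), a semaphorin receptor of sensory and sympathetic axons, was in E13.5 WT and E13.5 KO and not in E15.5 KO. The other 8 plexins were in all 3 lists, among them Plxna1, Plxna2, Plxna3 and Plxnb1, and so were the co-receptors Nrp1 and Nrp2. Plxna4os1, an antisense gene inside Plxna4, was in all 3 lists, including the one without Plxna4. Robo4 (chromosome 9, 37401897 to 37415115), a Robo of endothelial cells, was also missing from E15.5 KO only. Robo1, Robo2 and Robo3 were in all 3. Robo3 (chromosome 9, 37415669 to 37433246) ends 553 bases from Robo4 on the other strand. The endothelial markers Cdh5 and Tie1 had the same listing as Robo4, 5 of 7 endothelial markers were in all 3 lists, and the part of endothelial cells in the listing of Robo4 was not tested.

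Eph receptors differed in another way. Of 14 Eph genes 12 were in all 3 lists, among them Epha1, Epha2, Epha3 and Epha4, and each list held 13. Epha6 (chromosome 16, 59653483 to 60605531) was in E13.5 WT and E15.5 KO and not in E13.5 KO. Epha10 (chromosome 4, 124880899 to 124917800), whose kinase domain is thought to be inactive, was in E13.5 KO alone. The E13.5 WT and E15.5 KO lists thus lacked Epha10, and the E13.5 KO list lacked Epha6.

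**Figure D2:**
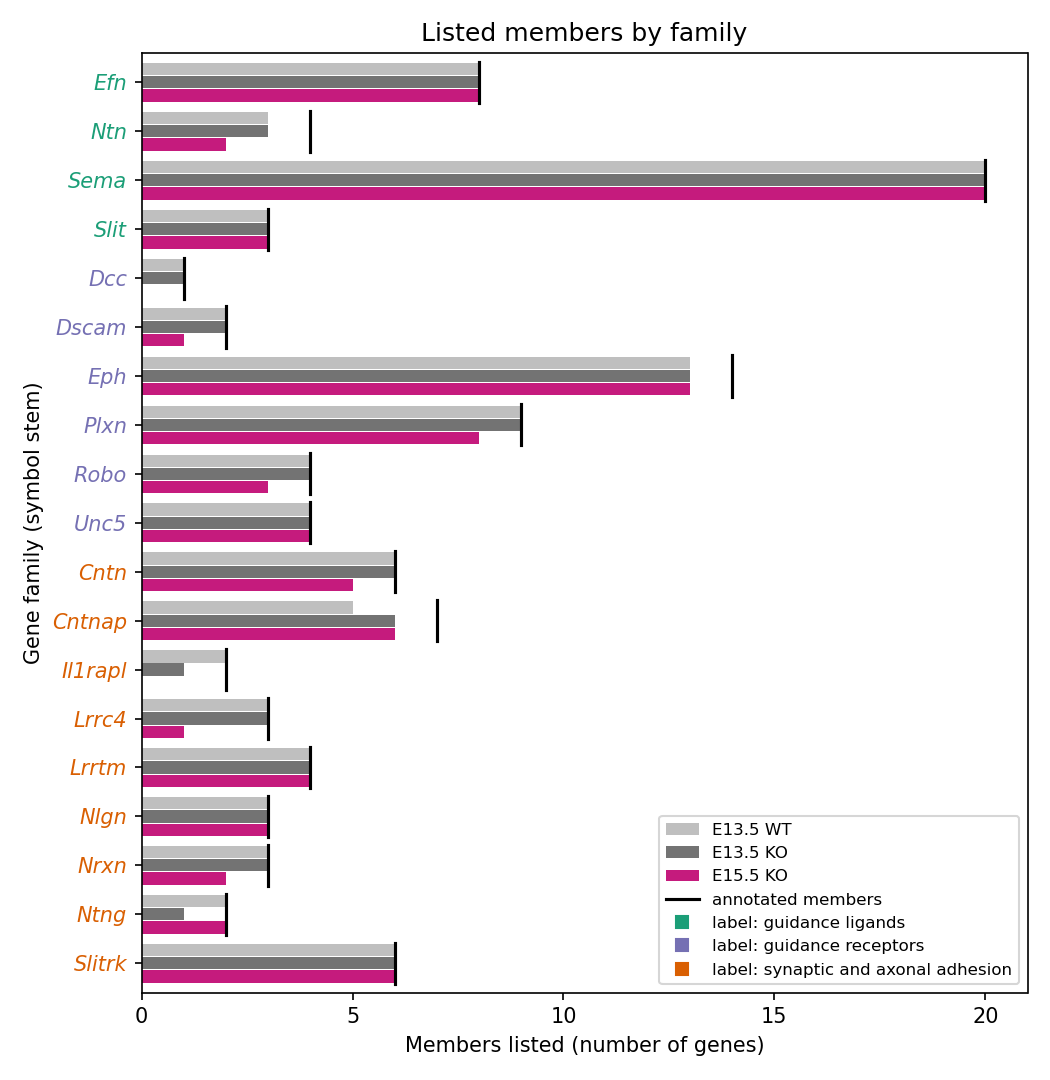
Members listed per family in each complete list (bars, number of genes) beside the number annotated (black line). Semaphorins stand at 20 of 20 in each list, and the Lrrc4 family goes from 3 and 3 to 1 and Il1rapl from 2 and 1 to 0.

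Synaptic and axonal adhesion genes held 9 of the 16 members that differed, and 5 of these were in both E13.5 lists and not in E15.5 KO. Nrxn3 (chromosome 12, 88722876 to 90334935), a presynaptic neurexin, was 1 of the 5. Its relative Nrxn2 was in all 3 lists, and so were the postsynaptic partners of neurexins: Nlgn1, Nlgn2 and Nlgn3, and Lrrtm1, Lrrtm2, Lrrtm3 and Lrrtm4. Of the 50-base stretches in the longest Nlgn3 transcript, 45.1% also occur in another gene's transcripts, most of them in Gm21986, so a listing of Nlgn3 is uncertain.

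The Lrrc4 genes encode netrin-G ligands, postsynaptic proteins with leucine-rich repeats. Lrrc4c (chromosome 2, 96318169 to 97631666), whose partner is netrin-G1, and Lrrc4b (chromosome 7, 44429018 to 44463351), whose partners are receptor phosphatases such as the product of Ptprf, were in both E13.5 lists and not in E15.5 KO. Lrrc4, the third gene of the family, was in all 3. On the presynaptic side Ntng1, which encodes netrin-G1, was in all 3 lists, and so were Ptprf, Ptprs and Ptprd. Ntng2 (chromosome 2, 29194541 to 29253005), which encodes netrin-G2, was in E13.5 WT and E15.5 KO and not in E13.5 KO. Of the 50-base stretches of Ntng2, 22.9% also occur in 6530402F18Rik, an overlapping gene on the same strand that all 3 lists held, so the listing of Ntng2 is uncertain.

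Neither Il1rapl gene was in the E15.5 KO list. Il1rapl1 (X chromosome, 86740870 to 88115645), a postsynaptic receptor whose partner is the phosphatase encoded by Ptprd, was in both E13.5 lists. Il1rapl2 (X chromosome, 137570608 to 138846946) was in E13.5 WT alone. Cntn6 (chromosome 6, 104492790 to 104863406), a contactin, which is an axonal adhesion protein held by a lipid anchor, was in both E13.5 lists and not in E15.5 KO. The other 5 contactins, Cntn1 to Cntn5, were in all 3.

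Caspr proteins organise axonal membranes together with contactins. Cntnap1, Cntnap2, Cntnap4, Cntnap5a and Cntnap5b were in all 3 lists. Cntnap5c (chromosome 17, 57769570 to 58410355) was in E13.5 KO alone. Cntnap3 (chromosome 13, 64736182 to 64903955) was in E15.5 KO alone and was the only member with that pattern. Of the 50-base stretches of Cntnap5c, 2.32% also occur in another gene's transcripts, most of them in Cntnap5a, and for Cntnap3 the count was 0. The 6 Slitrk genes, leucine-rich proteins that bind presynaptic phosphatases, were in all 3 lists, from Slitrk1, Slitrk2, Slitrk3 and Slitrk4 to Slitrk6.

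The comparison of KO with WT at E13.5 asks which members were listed in 1 genotype only. Of 103 members in either library, 98 were in both and 5 (4.85%) in 1 only, a share near the 6.08% of protein-coding genes. The 2 in KO only were Epha10 and Cntnap5c (1.94%, against 3.17% of protein-coding genes). The 3 in WT only were Epha6, Ntng2 and Il1rapl2 (2.91%, against 2.91%). Of these 5, Epha6 and Ntng2 were listed in E15.5 KO, and Epha10, Cntnap5c and Il1rapl2 were not.

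Between the ages, the KO lists show which members were listed at E13.5 or at E15.5 only. Of 103 members in either KO library, 88 were in both and 15 (14.6%) in 1 only, against 7.57% of protein-coding genes. At E13.5 only there were 12 (11.7%), against 5.03% of protein-coding genes, and at E15.5 only there were 3 (2.91%), against 2.55%. The families were picked with this contrast known, so nothing is read from these shares. The 12 were the 10 of the shared pattern with Epha10 and Cntnap5c, and the 3 were Epha6, Ntng2 and Cntnap3. The E13.5 WT list, which this comparison does not use, held 10 of the 12 and 2 of the 3. Age, sort and library coincide here. The 12 and the 3 lie outside the stretch that E15.5 WT covers. For them, age thus cannot be told apart from the KO genotype at E15.5.

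Gene span, the length of the gene with its introns, was a further property outside the choice of members. The 105 members had a median span of 108 kb, against 21.9 kb for listed protein-coding genes, and 34 exceeded 300 kb. The 10 members of the shared pattern had a median of 512 kb and a range of 10.5 to 1612 kb, and 7 of them exceeded 300 kb. Ntn5 (10.5 kb), Robo4 (13.2 kb) and Lrrc4b (34.3 kb) were the short ones. The median was 62.8 kb for members in all 3 lists and 13.2 kb for all protein-coding genes with the shared pattern. For protein-coding genes in all 3 lists the median was 23.6 kb. Of 553 listed protein-coding genes over 300 kb, members included, 22 had the shared pattern (3.98%). The share was 1.66% between 100 and 300 kb and 3.23% under 100 kb. The part of gene span in the pattern was not tested. Of the 9 members of 1 Mb or more, all 9 were listed in the E13.5 WT library, 8 in KO at that age and 4 in KO at E15.5. Among those 4 were Cntnap2 (2245 kb, the longest member), Cntn5 (1244 kb) and Cntn4 (1022 kb). The 5 that E15.5 KO did not list were Nrxn3 (1612 kb), Il1rapl1 (1375 kb), Lrrc4c (1313 kb), Il1rapl2 (1276 kb) and Dcc (1097 kb).

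**Figure D3:**
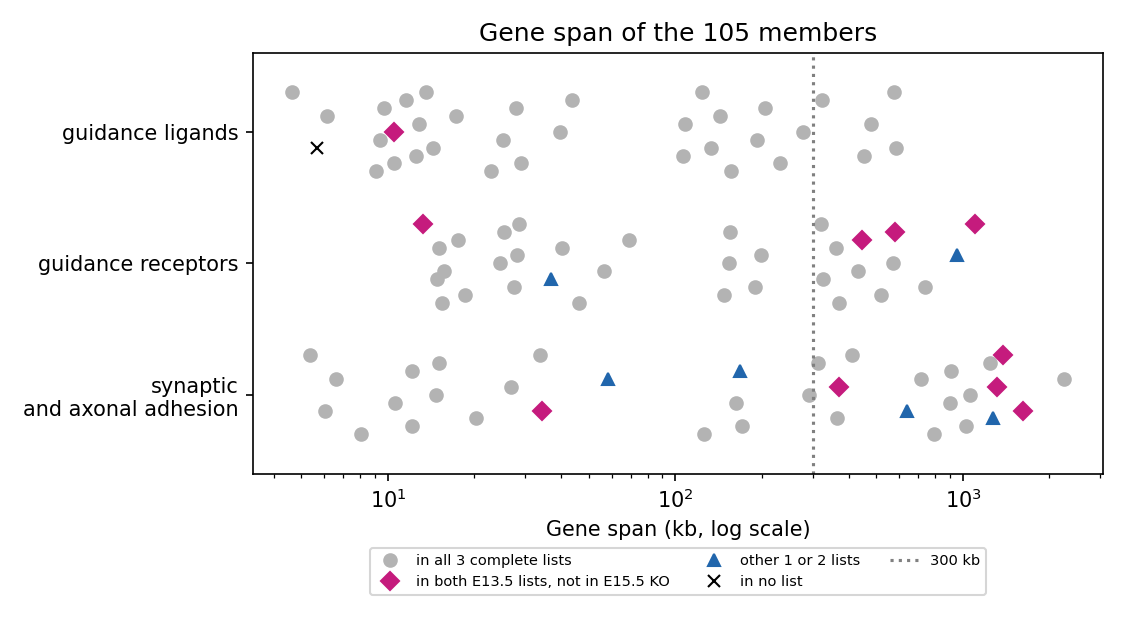
Gene span of the 105 annotated members (x axis, kb, log scale) by role, with vertical scatter for legibility. Diamonds mark the 10 members in both E13.5 lists and not in E15.5 KO, 7 of which lie right of the dotted line at 300 kb, and triangles the other 6 that differed.

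Long genes outside these families did not show the same count. Of 49 listed protein-coding genes of 1 Mb or more that are not members, 48 were in all 3 lists and 0 had the shared pattern. Over 300 kb, 8 of 33 members in either KO list were at E13.5 only (24.2%), against 23 of 516 other protein-coding genes (4.46%). With members included, the share of protein-coding genes over 300 kb was 5.65%. Between 100 and 300 kb the counts were 0 of 20 members and 40 of 1828 others (2.19%), and under 100 kb 4 of 50 members (8%) and 810 of 15155 others (5.34%). Members over 300 kb account for 7 of the 22 protein-coding genes of that size with the shared pattern. These shares come from the contrast known when the families were picked, and they test nothing.

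**Figure D4:**
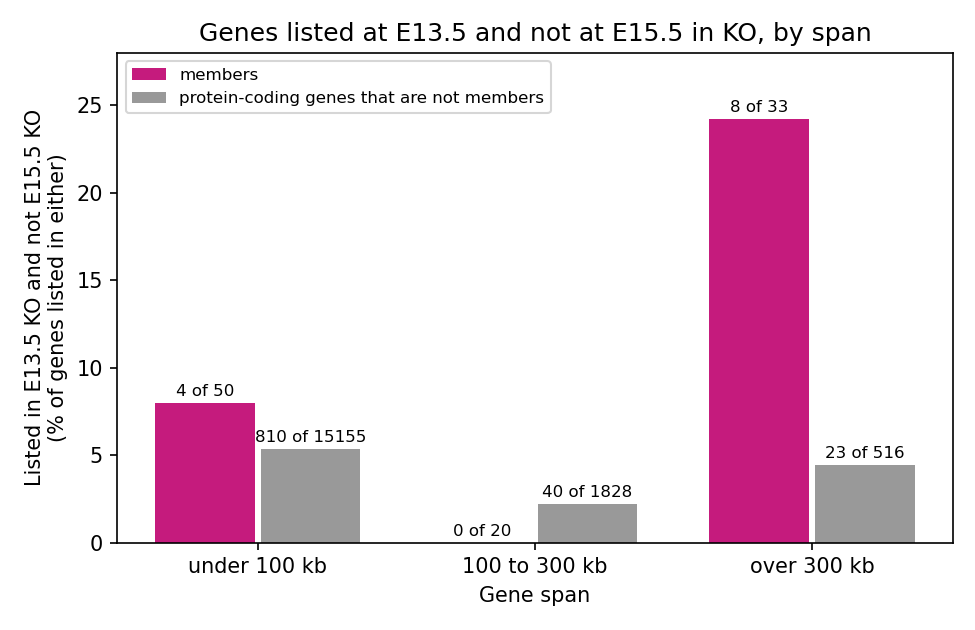
Share of genes listed in E13.5 KO and not in E15.5 KO (y axis, percent of genes in either list) by gene span, for members and for other protein-coding genes, with counts above the bars. Members over 300 kb stand at 24.2% (8 of 33) and other genes of that span at 4.46% (23 of 516).

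Other genes of these pathways were listed almost throughout. All 12 co-receptors and cell surface partners were in all 3 lists, among them Nrp1, Nrp2, Neo1, L1cam and Ncam1. The 27 cytoplasmic partners of guidance receptors, such as Dpysl2, which links semaphorin signals to microtubules, and Trio, an exchange factor for small GTPases, were in all 3, and so were 20 synaptic scaffold genes such as Dlg4 and Shank3. Of 39 other synaptic adhesion genes 38 were in all 3. The exception was Lrfn2 (chromosome 17, 48932379 to 49097588), a postsynaptic leucine-rich repeat protein, which was in both E13.5 lists and not in E15.5 KO. Thus 1 of 98 pathway genes was at E13.5 only in KO, against 5.03% of protein-coding genes. These genes were also chosen with earlier results of these data known, so nothing is read from that share.

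Of 61 cell type markers, 8 (13.1%) were at E13.5 only in KO, against 5.03% of protein-coding genes, and 4 of the 8 were neuron markers. The markers were chosen with earlier results of these data known, so nothing is read from this share. Both E13.5 lists held all 22 neuron markers, and the E15.5 KO list held 18. Among those it lacked were Dbh, which makes noradrenaline, and Chat and Slc18a3, which make and load acetylcholine and share a locus. Tubb3, Elavl4, Snap25, Stmn2 and Th were among the 18. Of 7 endothelial markers E15.5 KO lacked 2, Cdh5 and Tie1. It lacked 1 of 10 Schwann cell and neural crest markers, Foxd3, and 1 of 8 mesenchymal markers, Nkx3-2, so the difference in each of these last lists is a single gene. Both E13.5 lists held all markers of these cell types. The 14 pancreatic epithelial markers, Epcam and Pdx1 among them, were in all 3 lists, and none of the 61 markers differed between the E13.5 genotypes. Dbh and Th lie in the part that E15.5 WT covers and were listed there. Dbh was thus in 1 genotype only at E15.5, as were 4.68% of protein-coding genes listed in either E15.5 library in that part. The epithelial markers Cdh1, Sox9, Ins2 and Gcg in the same part were in all 4 lists, as was Th. The part of these cell types in the listing of the members was not tested. Endocrine cells express many of the neuron markers, so that list is not specific to nerves in this tissue.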

How the data were processed

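Gene lists of 4 single-cell RNA-seq libraries were used. Per the labels' protocols, cells were dissociated with TrypLE, labelled for EpCAM, sorted and sequenced as paired-end reads. Seurat and the build mm10 are named in the submitters' processing notes. The sources used here name no aligner, annotation release or filter. Each file deposited by the authors has 2 columns, identifier and symbol, with no values, so the unit is listed or not listed and depth is unknown.

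Members were found by symbol and located in GENCODE M21 (GRCm38). All 104 had the symbol that the annotation gives. Members, families and further gene lists were chosen with earlier results of these data known. Genes named are every member not in all 3 complete lists, members in the E15.5 WT stretch, and up to 4 constant members per family, with others of short families added, and some are not reported here. Shares were set beside protein-coding genes listed in either library. Shared sequence was checked over 50-base stretches of GENCODE transcripts: 81 of 105 members shared none with another gene. The counting was tested on simulated lists. Python 3.11.15 was used.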

Additional observations from a re-analysis of the deposited data

How the results depend on the processing

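No paired analysis was possible because there is 1 library in each group. Matching by identifier and removing numbered suffixes changed no count of members. Without Cntnap3 and the Cntnap5 genes, the members in E13.5 KO and not E13.5 WT numbered 1 in place of 2. Cntnap5c is among those left out. The members in E15.5 KO and not E13.5 KO numbered 2 in place of 3, since Cntnap3 is left out. That change lies at the border of 1.5 times, and the other counts changed less. Taking all genes in place of protein-coding genes as background raised the share listed in 1 library only to 16.3% between the E13.5 genotypes and to 17.8% between the KO ages, since non-coding genes are then included. Against 17.8%, the 14.6% of members that differed between the KO ages lies below the background, and against the 7.57% of protein-coding genes above it. As no depth is known, absence from a list does not show absence from the cells.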

Other observations

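The members hold 172 annotated non-coding genes wholly inside their spans, of which 40 were in any complete list. On the host's strand 18 of 99 were listed, 12 in E13.5 KO and 9 each in E13.5 WT and E15.5 KO, and 4 of the 18 were in all 3 lists. On the opposite strand 22 of 73 were listed, and 14 of the 22 were in all 3. These counts were not set beside a share over all non-coding genes. The E13.5 KO list was also the longest with all gene types counted. Most of the 14 were processed pseudogenes or antisense genes, and few of the 18 on the host's strand were. Strand and gene type thus go together here, and nothing is read from the difference between strands. Slit2 was in every complete list, while the microRNA gene Mir218-1 inside it was in E13.5 KO alone. Of the members absent from E15.5 KO, Lrrc4c contains 4930445B16Rik, a long non-coding RNA gene on the other strand that was listed in E15.5 KO alone, and Nrxn3 contains Gm48700, listed in E13.5 KO alone. Il1rapl1 contains the processed pseudogene Gm14776, which was in all 3 lists.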
